A study of Mus musculus with 13 samples.

Results

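Mitochondrial ribosomal protein genes were taken as all rows of the deposited expression table whose symbol starts with Mrpl or Mrps followed by a digit, which gave 66 of 11761 listed genes. Of these, 44 encode proteins of the large subunit and 22 proteins of the small subunit of the mitochondrial ribosome. Mrps30 and Mrps18a carry small-subunit names but are counted with the large subunit, where both proteins lie. The libraries came from epididymal white fat of Adipoq-NuTRAP mice on the C57BL/6J background, fed either a high-fat diet (HFD, 3 libraries) or standard chow (3 libraries) for 10 weeks. Per the labels' protocols the mice were maintained on a standard chow with 6.4% fat by weight; the sources used here give neither the composition of the HFD nor the sex and age of the mice. In NuTRAP mice the Adipoq promoter, active in adipocytes, switches on a GFP-tagged cytosolic ribosome protein, so that an antibody against GFP recovers RNA engaged with ribosomes of adipocytes from a homogenate of the whole tissue. The 7 chromatin samples of the series (5 for H3K27ac and 2 for PPARG) were not analysed here.

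The mitochondrial ribosome makes the few proteins encoded by mitochondrial DNA, all of them core subunits of the respiratory chain and ATP synthase. Its RNA comes from the mitochondrial genome, whereas every one of its proteins is encoded in the nucleus, translated on cytosolic ribosomes and imported. Some of them descend from bacterial ribosomal proteins and others exist only in mitochondria. In fat, mitochondrial translation is needed for the respiratory capacity of adipocytes.

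Levels are in CPM, reads per gene scaled to the library size, obtained as powers of 2 of the deposited log2 CPM, and fold changes are HFD minus chow on log2(CPM + 1), which understates changes of low genes. All 66 genes passed the filter of a mean of at least 1 CPM. Their means over the 6 libraries ran from 7.45 CPM for Mrpl22 to 128 CPM for Mrpl20. The effective library size was 31980000 to 39400000 reads in HFD and 7430000 to 32470000 reads in chow, where chow replicate 3 was the shallowest. Even there the lowest member value stood for 43.2 reads, and no member was at the lowest value of the table in any library. Chow replicate 3 also had the highest level of the ribosomal RNA precursor gene Rn45s, with 23170 CPM, against 6654 and 12503 CPM in the other chow libraries and 4068 to 10297 CPM in HFD. The labels do not say whether replicates are separate animals, and the p-values reflect only how these libraries scatter, in part perhaps for technical reasons.

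With the deposited scaling a part of the mitochondrial ribosomal protein genes was lower in HFD and none passed the test as higher, whereas with a scaling to adipocyte markers 0 were lower and 17 (25.8%) higher, where 50.8% of all tested genes were called higher. The excess of lower calls over the share in all genes was also absent without HFD replicate 1 or without HFD replicate 3, as given below. With limma and Benjamini-Hochberg adjustment over 11643 genes at a threshold of 0.05, 16 of the 66 (24.2%) were called lower, where 16.0% of all tested genes were called lower. The count called higher was 0 of 66 in this limma fit, where 19.1% of all tested genes were called higher. It was also 0 with voom weights, where 18.1% of all tested genes were called higher. At an unadjusted limma p under 0.05, 2 members were higher and 20 lower. The share of all tested genes under that unadjusted threshold was not counted, so these numbers have no background beside them. The median log2 fold change of the 66 genes was -0.22, against -0.004 over all genes tested. The remaining 50 genes were not called, 39 with a negative and 11 with a positive fold change. The falls were modest. The largest, Mrpl9, left HFD at 50.5% of the chow mean, and in 0 of the 66 genes was the HFD mean under 50% of the chow mean.

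**Figure D1:**
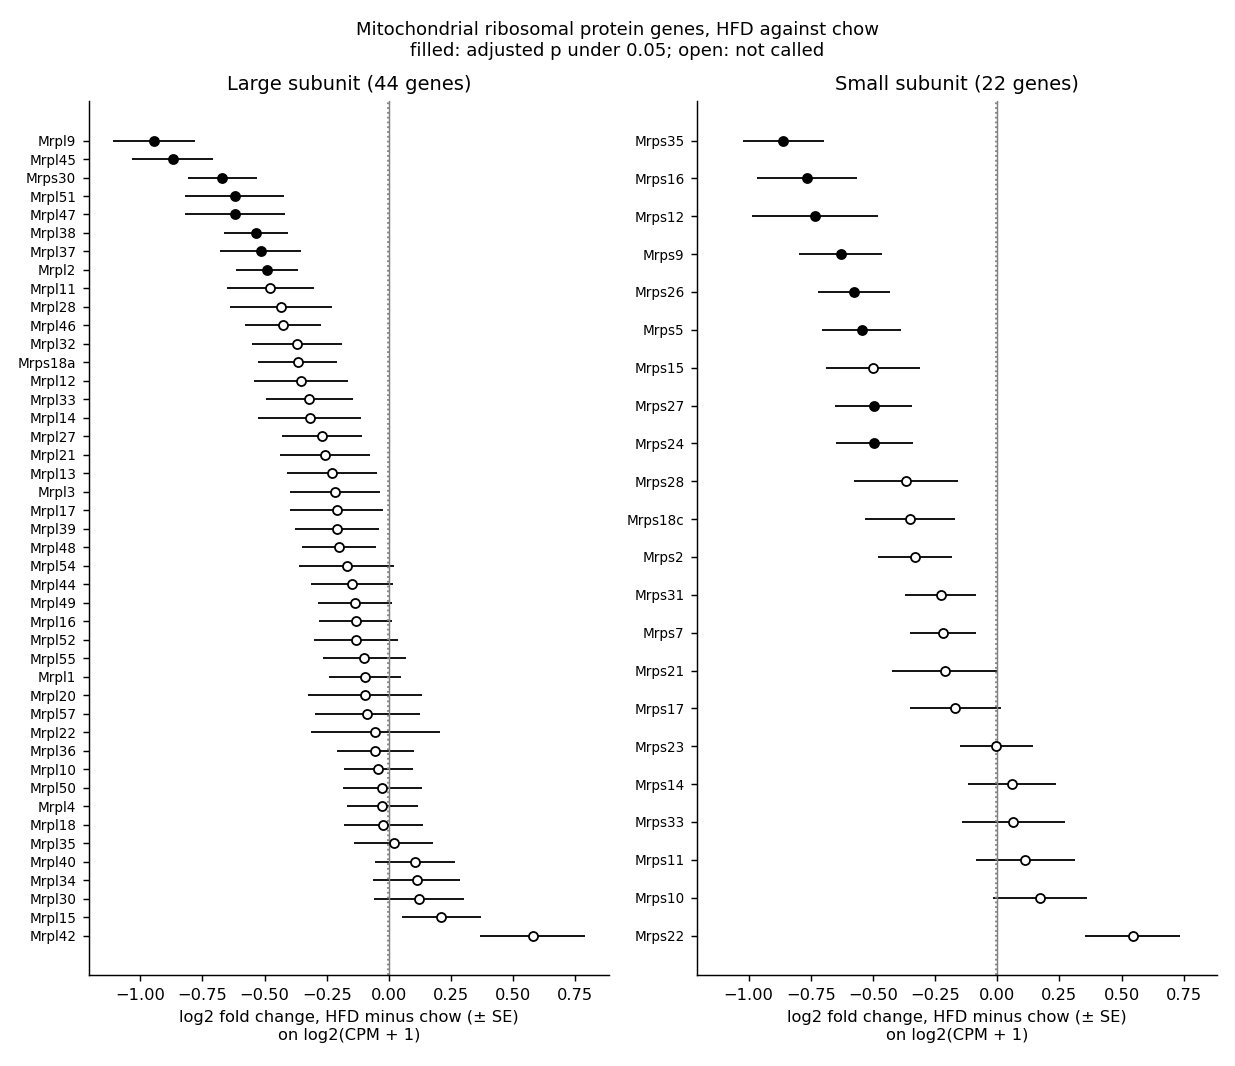
Log2 fold change of each of the 66 genes (HFD minus chow on log2(CPM + 1), bars ± SE, n = 3 libraries per diet), by subunit, with the dotted line at the median of all genes tested (-0.004). Filled points are the 16 genes with an adjusted p under 0.05, all of them left of 0 with the deposited scaling (with adipocyte marker scaling 0 of them were called lower); open points were not called.

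The direction depends on the scaling. With library totals set equal the members' median was -0.11 and 9 (13.6%) were called lower, near the 11.5% of all tested genes, while the median of all genes moved to 0.10. In a scaling added after seeing the data, the median of 12 adipocyte marker genes was set equal between libraries. With the deposited scaling 7 of these 12 were themselves called lower in HFD and 1 higher (median -0.58). Setting them equal thus raises HFD against chow for every gene. The sign then turned: the members' median was 0.36, with 17 called higher and 0 lower, while the median of all genes was 0.56. Under equal totals and under adipocyte marker scaling the members' median lay below that of all genes, by 0.21 and 0.20. Of all called genes 54.4% were higher in HFD with the deposited scaling, 65.3% with equal totals and 94.7% with adipocyte marker scaling. Of the 16 called genes, Mrpl2, Mrpl37, Mrpl38, Mrps5, Mrps24, Mrps26 and Mrps27 had fold changes above 0 with adipocyte marker scaling, none of them called. A fall is thus meant against the median gene, which sat at -0.004 in the deposited scaling. In RNA recovered with tagged ribosomes from a whole-tissue homogenate, several sources of a change cannot be told apart. Among them are the number of cells of a type, the RNA per cell, its share on ribosomes and RNA of other cells.

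Markers of other cells of fat moved with the diet in the same libraries. Summed over 17 listed macrophage markers, the level was 402 to 611 CPM in HFD against 96.9 to 121 CPM in chow, with 14 of 16 tested markers called higher and 1 listed at the lowest value in at least 1 library. The macrophage marker Cd14 was called lower (log2 fold change -2.22, limma adjusted p 0.000209). The sums of 12 endothelial markers were 171 to 335 CPM in HFD and 36.5 to 93.0 CPM in chow, with 11 of 12 called higher. For 8 smooth muscle and pericyte markers they were 1150 to 1460 CPM in HFD and 367 to 458 CPM in chow, with 8 of 8 called higher. Of 12 fibroblast and progenitor markers 4 were called higher and 1 lower (sums of 2005 to 3782 CPM in HFD and 2329 to 3698 CPM in chow), and of 7 mesothelial markers 2 were called higher (41.8 to 137 CPM in HFD and 19.2 to 30.8 CPM in chow), with 1 at the lowest value in at least 1 library. The 12 adipocyte markers, which the label of the cells predicts, were all present and summed to 16356 to 18550 CPM in HFD and 19182 to 30080 CPM in chow; 7 were called lower and 1 higher. The part of these shifts in the members' values was not tested.

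Among the 27 large-subunit genes with a bacterial counterpart, 3 (11.1%) were called lower and 24 were not called, with a median of -0.22. That share was below the 16.0% of all tested genes. Mrpl9, on chromosome 3 at 94443154 to 94448708 (GRCm38.p6), encodes the counterpart of a bacterial protein. Mrpl9 had 49.9, 48.8 and 52.7 CPM in HFD libraries 1 to 3, against 85.6, 86.8 and 127 CPM in chow libraries 1 to 3. All HFD libraries lay below all chow libraries, and chow replicate 3 was the highest. The means were 50.5 ± 2.00 CPM in HFD and 99.9 ± 23.6 CPM in chow (SD, n = 3 each), and limma put the log2 fold change at -0.95 (SE 0.17, adjusted p 0.00228).

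Mrpl2 encodes a protein close to the site where peptide bonds are formed. Mrpl2 had 37, 39.4 and 37.3 CPM in HFD libraries 1 to 3, against 49.2, 55.3 and 56.5 CPM in chow libraries 1 to 3. The diets did not overlap and the spread within each was narrow. It differed by -0.49 on the log2 scale (SE 0.13, limma adjusted p 0.0144), and its gene span overlaps that of the listed gene Klc4, so that reads could be shared where exons overlap. Mrpl47, whose protein sits by the exit of the peptide tunnel, was among the lowest members in CPM. Mrpl47 had 6.87, 7.89 and 5.43 CPM in HFD libraries 1 to 3, against 10.9, 12.2 and 9.32 CPM in chow libraries 1 to 3. HFD was lower in every library, with a log2 fold change of -0.62 (SE 0.20, limma adjusted p 0.0391), with the margin between the nearest libraries of the diets smaller than the spread within chow.

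Of the 17 large-subunit genes without a bacterial counterpart, 5 (29.4%, against 16.0% of all tested genes) were called lower. The other 12 were not called, and the median was -0.17. Mrpl45, on chromosome 11 at 97314923 to 97329920, encodes the protein that holds the ribosome to the inner mitochondrial membrane beside the tunnel exit. Mrpl45 had 27.9, 26.7 and 28.2 CPM in HFD libraries 1 to 3, against 46.5, 44.6 and 64.9 CPM in chow libraries 1 to 3. The HFD libraries were nearly identical and all far under chow. HFD stood at 53.1% of chow, with a log2 fold change of -0.87 (SE 0.16, limma adjusted p 0.00337). Mrps30 had 29.2, 33.1 and 32.2 CPM in HFD libraries 1 to 3, against 44.9, 50.9 and 56.9 CPM in chow libraries 1 to 3. The protein of Mrps30 belongs to the large subunit despite the name, and the diets did not overlap (log2 fold change -0.67, SE 0.14, limma adjusted p 0.0056).

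Mrpl38 encodes a protein of the central protuberance, the crown of the large subunit. Mrpl38 had 24.6, 23.8 and 25.1 CPM in HFD libraries 1 to 3, against 34.5, 37.8 and 35.5 CPM in chow libraries 1 to 3. Libraries of the same diet differed by little, and it had a log2 fold change of -0.54 (SE 0.13, limma adjusted p 0.0111). Mrpl51 had 46.5, 57.7 and 49.9 CPM in HFD libraries 1 to 3, against 64, 70.5 and 110 CPM in chow libraries 1 to 3. Chow replicate 3 stood well above the other chow libraries; the log2 fold change of -0.62 (limma adjusted p 0.0376) passed in 2 of the 6 fits that left out a library, and not in the fit without that library. Mrpl37 had 43.4, 36.8 and 40.2 CPM in HFD libraries 1 to 3, against 47.8, 56.5 and 71 CPM in chow libraries 1 to 3. Its limma log2 fold change was -0.52 (adjusted p 0.0351), its span overlaps the listed gene Cyb5rl, and it passed in only 1 of the 6 fits that left out a library.

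**Figure D2:**
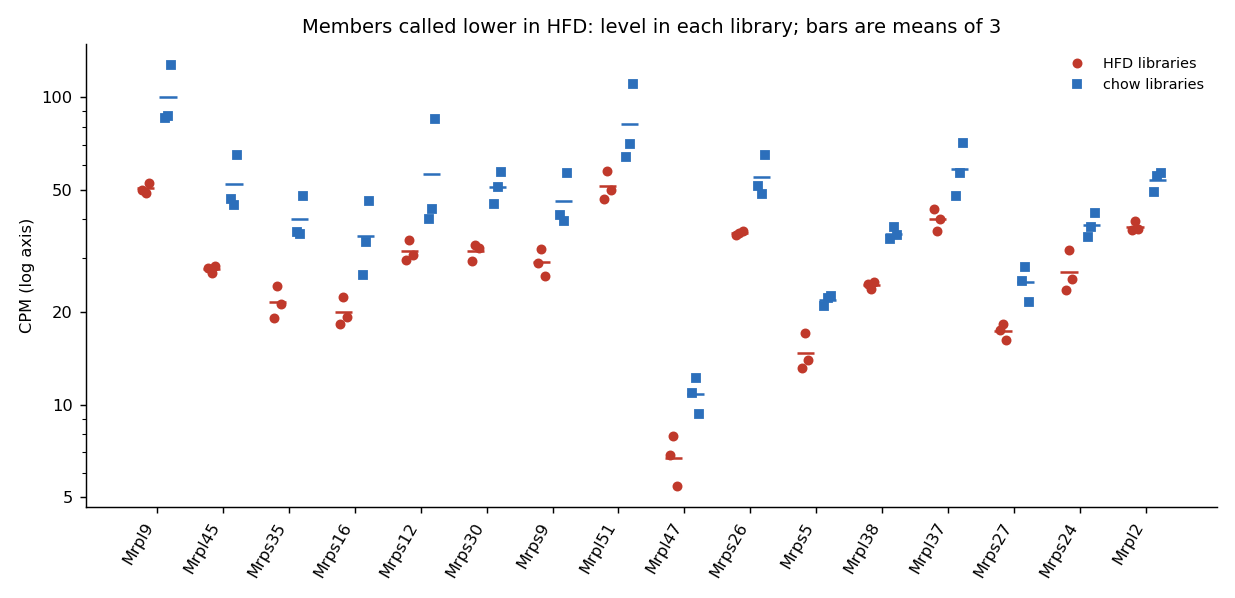
CPM (deposited scaling) of the 16 genes called lower in HFD in each library (log axis), with HFD circles left of chow squares and bars at the means of 3. Within each gene all HFD libraries lie below all chow libraries, and in most panels the highest chow point is replicate 3.

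The small subunit reads the messenger RNA, and 8 of its 22 genes (36.4%) were called lower (median -0.34), against 16.0% of all tested genes. Of 7 genes without a bacterial counterpart 3 (42.9%) were called lower, and of 15 with such a counterpart 5 (33.3%). Mrps35, a mitochondria-specific member on chromosome 6 at 147042728 to 147070906, had the largest fall in this subunit. Mrps35 had 19.2, 24.3 and 21.3 CPM in HFD libraries 1 to 3, against 36.5, 36 and 47.8 CPM in chow libraries 1 to 3. The lowest chow library was well above the highest HFD library, and the means were 21.6 ± 2.56 CPM in HFD and 40.1 ± 6.69 CPM in chow (SD, n = 3 each; log2 fold change -0.86, SE 0.16, limma adjusted p 0.00363). Mrps26 had 35.5, 36.3 and 36.8 CPM in HFD libraries 1 to 3, against 51.3, 48.5 and 64.9 CPM in chow libraries 1 to 3. The HFD values lay within a narrow band under every chow value, with a log2 fold change of -0.58 (SE 0.14, limma adjusted p 0.0128).

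Mrps16, whose loss in people causes a combined defect of the respiratory chain, had 18.3, 22.3 and 19.3 CPM in HFD libraries 1 to 3, against 26.4, 33.8 and 45.9 CPM in chow libraries 1 to 3. The diets did not overlap, although chow spread widely, and HFD differed by a log2 fold change of -0.76 (SE 0.20, limma adjusted p 0.0168). Mrps12, of the decoding centre, had 29.4, 34.3 and 30.7 CPM in HFD libraries 1 to 3, against 40.2, 43.1 and 85 CPM in chow libraries 1 to 3. This call was the closest to the threshold (-0.73, SE 0.25, limma adjusted p 0.0496), and chow replicate 3 was far above the other chow libraries. The Mrps12 call was lost with the deposited log2 values, no filter, a mean of at least 5 CPM, equal totals, adipocyte marker scaling, no variance trend and voom weights, and in 3 of the 6 fits that left out a library. Mrps9 had 28.8, 32 and 26.2 CPM in HFD libraries 1 to 3, against 41.4, 39.7 and 56.5 CPM in chow libraries 1 to 3. This counterpart of a bacterial protein of the small-subunit head did not overlap between diets (-0.63, SE 0.17, limma adjusted p 0.0172).

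Mrps5, studied in mice and worms for a link between mitochondrial translation and lifespan, had 13.2, 17.1 and 13.9 CPM in HFD libraries 1 to 3, against 21, 22.2 and 22.5 CPM in chow libraries 1 to 3. The chow libraries agreed closely and all HFD libraries were lower (-0.55, SE 0.16, limma adjusted p 0.0242). Mrps24, which lies where the messenger enters, had 23.6, 31.8 and 25.6 CPM in HFD libraries 1 to 3, against 35, 37.8 and 41.9 CPM in chow libraries 1 to 3. HFD replicate 2 came near the lowest chow library without reaching it (-0.49, SE 0.16, limma adjusted p 0.0343). Mrps27, a protein of the pentatricopeptide repeat family that binds RNA, had 17.5, 18.3 and 16.2 CPM in HFD libraries 1 to 3, against 25.3, 28.1 and 21.6 CPM in chow libraries 1 to 3. Its lowest chow library was replicate 3, and the diets did not overlap (-0.50, SE 0.15, limma adjusted p 0.0333).

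Many of these calls rest on particular libraries. Without HFD replicate 3, 6 members (9.09%) were called lower, where 9.98% of all tested genes were. Without HFD replicate 1 the count was 8 (12.1%), where 12.6% of all tested genes were called lower, so that in both fits the members' share did not exceed that of all genes. Leaving out HFD replicate 2 gave 12 (18.2%, against 10.7% of all genes). Leaving out chow replicate 1, 2 or 3 gave 15, 11 and 13 (22.7%, 16.7% and 19.7%), against 14.1%, 13.5% and 14.9% of all genes. The 6 genes Mrpl9, Mrpl45, Mrps30, Mrpl38, Mrps35 and Mrps26 were called in all 6 of these fits, Mrpl2 and Mrps9 in 5, and Mrps16 in 4. Mrps5 and Mrps12 were called in 3, Mrpl47, Mrpl51 and Mrps24 in 2, and Mrpl37 and Mrps27 in 1. With equal totals the calls of Mrpl2, Mrpl37, Mrpl47, Mrps5, Mrps12, Mrps24 and Mrps27 were lost.

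In 22 of the 66 genes (33.3%) all HFD libraries lay below all chow libraries, where 25.0% of all tested genes did so. All HFD libraries lay above all chow libraries in 2 of 66 (3.03%), where 25.2% of all tested genes did so. These 2 were Mrps22, a mitochondria-specific gene of the small subunit whose variants cause mitochondrial disease in people, and Mrpl42, a mitochondria-specific gene of the large subunit. Mrps22 had 23.9, 31.1 and 26.7 CPM in HFD libraries 1 to 3, against 17.6, 23.4 and 14.7 CPM in chow libraries 1 to 3. The margin between HFD replicate 1 and chow replicate 2 was small, and the log2 fold change of 0.54 (SE 0.19, limma adjusted p 0.0532) did not pass. Mrpl42 had 25.6, 39.4 and 26.7 CPM in HFD libraries 1 to 3, against 18.8, 24.9 and 16.4 CPM in chow libraries 1 to 3. Again the nearest libraries almost touched, and 0.58 (SE 0.21, limma adjusted p 0.0595) did not pass. Both genes were called higher without chow replicate 2 (adjusted p 0.0217 for Mrps22 and 0.0322 for Mrpl42 in limma).

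Of the other 6 members without overlap that were not called, Mrpl11, Mrpl46 and Mrps15 were nearest to the threshold; they were picked after their values were seen. Mrpl11, of the factor-binding stalk base, averaged 44.7 ± 6.05 CPM in HFD and 63.2 ± 13.6 CPM in chow (SD, n = 3 each) and had a log2 fold change of -0.48 (95% interval -0.87 to -0.09, limma adjusted p 0.0597). For Mrpl46, of the central protuberance, the log2 fold change was -0.43 (95% interval -0.77 to -0.08, limma adjusted p 0.0558), and for Mrps15 it was -0.50 (95% interval -0.93 to -0.08, limma adjusted p 0.0669).

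Of the stalk that recruits translation factors, none of the 3 measured genes (Mrpl10, Mrpl11 and Mrpl12) passed. Mrpl12, which forms the flexible stalk and has been reported to bind the mitochondrial RNA polymerase, had 81.6, 101 and 77.7 CPM in HFD libraries 1 to 3, against 94.4, 96.3 and 148 CPM in chow libraries 1 to 3. HFD replicate 2 reached into the chow range, and the log2 fold change was -0.35 (95% interval -0.78 to 0.07, limma adjusted p 0.178). Mrpl10, the anchor of Mrpl12, had 62.2, 70.0 and 65.3 CPM in HFD libraries 1 to 3, against 70.0, 76.6 and 58.1 CPM in chow libraries 1 to 3. The diets overlapped, with a log2 fold change of -0.04 (95% interval -0.35 to 0.27, limma adjusted p 0.836).

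Further genes were picked for their place in the structure after their values were seen. Around the tunnel exit, beside Mrpl45 and Mrpl47, Mrpl17 had a log2 fold change of -0.21 (95% interval -0.63 to 0.21) and Mrpl22 of -0.06 (95% interval -0.64 to 0.53). In the central protuberance, beside Mrpl38 and Mrpl46, Mrpl27 stood at -0.27, Mrpl48 at -0.20, Mrpl18 at -0.02 and Mrpl40 at 0.10, none of them called. Differences between these neighbours in the structure were not tested.

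Of members with particular roles, Mrpl44, which resembles a ribonuclease and is mutated in a cardiomyopathy of people, had a log2 fold change of -0.15 (95% interval -0.52 to 0.22). Mrps28 had -0.37 (-0.84 to 0.10) and Mrps18a -0.37 (-0.72 to -0.01). The members nearest to no difference were Mrps23 at -0.0031 (-0.33 to 0.33) and Mrpl35 at 0.02 (-0.34 to 0.38); these intervals do not show that the genes are equal between diets. The highest fold changes after Mrpl42 and Mrps22 belonged to Mrpl15 (0.21, 95% interval -0.15 to 0.57), Mrps10 (0.17), Mrpl30 (0.12) and Mrps11 (0.11). None of these passed (limma adjusted p 0.331 to 0.692).

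Summed over the 66 genes, the level was 2153, 2674 and 2310 CPM in HFD libraries 1 to 3, against 2511, 2824 and 3351 CPM in chow libraries 1 to 3. HFD replicate 2 lay above chow replicate 1, so the sums overlapped, and the HFD mean was 82.2% of the chow mean. For the large subunit the share was 83.0% and for the small subunit 80.2%. Summed over all tested genes, the HFD mean was itself 92.3% of the chow mean with the deposited scaling. That sum was highest in chow replicate 3, at 1182090 CPM, against 984330 to 997431 CPM in HFD. The counts called lower were 8 of 44 (18.2%) in the large and 8 of 22 (36.4%) in the small subunit. Of all tested genes 16.0% were called lower, so the share of the large subunit was near that of all genes. Of 42 genes with a bacterial counterpart 8 (19.0%) were called lower (median -0.24), and of 24 without such a counterpart 8 (33.3%, median -0.19). Differences between these classes were not tested.

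Most of the 66 genes varied together from library to library within a diet. HFD replicate 2 was the highest HFD library for 59 of 66 members (89.4%), whereas over all tested genes it was the highest for 35.5%. This was not particular to the members. Of the lists described below, summed levels were highest in HFD replicate 2 for mitochondrial mass markers (2611 CPM, against 2388 and 2481 CPM in HFD replicates 1 and 3). The same held for translation factors (400, against 375 and 387 CPM), but not for assembly factors (458.7, against 458.9 and 418.4 CPM). Among chow libraries, replicate 3 was the highest for 38 members (57.6%) and replicate 2 for 28 (42.4%), with 38.8% and 28.2% over all tested genes, and chow replicate 1 was the highest for 0 members. Once diet means were removed, the correlation of each member with the mean of the other 65 over the 6 libraries had a median of 0.81. It ran from -0.20 for Mrps27 and -0.13 for Mrpl10 to 0.97 for Mrps18c and 0.99 for Mrpl50. These correlations share the libraries and their depth, and are given as a description, without values for other gene sets beside them. The median deviation of the members from their own mean over all libraries was 0.06 in HFD replicate 2, between -0.25 and -0.17 in HFD replicates 1 and 3, -0.05 in chow replicate 1, and 0.13 and 0.25 in chow replicates 2 and 3.

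**Figure D3:**
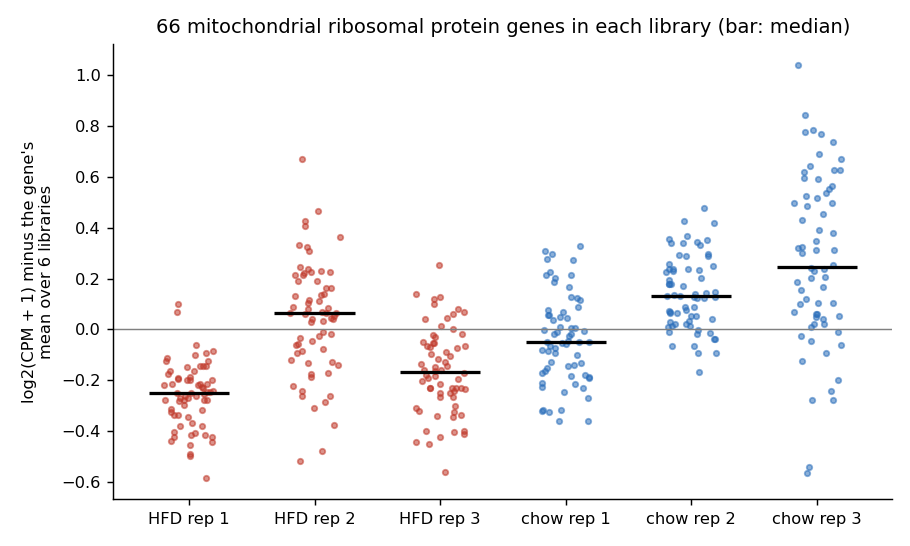
Deviation of each of the 66 genes from its own mean over the 6 libraries, on log2(CPM + 1), in each library, with HFD libraries first; black bars are medians over the genes. HFD replicate 2 lies near chow replicate 1, with medians of 0.06 and -0.05, and chow replicate 3 has the highest median, 0.25.

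Other genes of mitochondrial translation gave the following counts, to be read beside the 16.0% of all tested genes called lower and 19.1% called higher. Of 13 translation factors 4 were called lower and 0 higher, with a median of -0.29. Tsfm, the exchange factor of the elongation factor Tufm, averaged 29.7 ± 1.44 CPM in HFD and 54.2 ± 19.4 CPM in chow (SD, n = 3 each), and Tufm itself 11.7 ± 0.966 CPM in HFD and 19.5 ± 2.44 CPM in chow. Both fell (limma log2 fold changes -0.79 for Tsfm and -0.69 for Tufm, adjusted p 0.0194 and 0.0108). Mtfmt, which adds the formyl group to the initiator, fell as well (limma log2 fold change -0.52, adjusted p 0.0466), but stood at 0.02 with adipocyte marker scaling.

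Of 22 factors for assembly and rRNA modification 6 were called lower and 0 higher (median -0.23). Ngrn had the largest fall, to 21.1 ± 0.254 CPM in HFD, against 40.6 ± 7.36 CPM in chow (SD, n = 3 each; limma log2 fold change -0.90, adjusted p 0.00232). Next were the helicase gene Ddx28 and the methyltransferase gene Ftsj2, with log2 fold changes of -0.77 and -0.74. Of 20 mitochondrial aminoacyl-tRNA synthetase genes and relatives 7 were called lower and 0 higher (median -0.39), led by Pars2 (-1.20), Vars2 (-0.71) and Hars2 (-0.71). Mitoribosomal proteins under other names had 0 calls among 5 measured genes by limma, with Dap3, a protein of the small subunit, at -0.34 (SE 0.14, adjusted p 0.0815).

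The mitochondrial transcription and RNA list had 2 called lower and 0 higher of 20 (median -0.16). Tfam, which packages mitochondrial DNA and starts its transcription, fell to 32.3 ± 1.82 CPM in HFD, against 56.9 ± 11.1 CPM in chow (SD, n = 3 each; limma log2 fold change -0.78, adjusted p 0.00481). Trmt10c, of tRNA processing, had a log2 fold change of -0.65 (limma adjusted p 0.0114). Polrmt, the polymerase, stood at -0.02 (SE 0.15, limma adjusted p 0.933). Of 11 regulators 3 were called lower and 0 higher (median -0.25): Myc (-1.0), and the coactivator genes Ppargc1a (-0.996) and Ppargc1b (-0.88). The factors Gabpa (-0.52), Nrf1 (-0.37) and Esrra (-0.25), which bind promoters of mitochondrial genes, did not pass (limma adjusted p 0.0575, 0.1 and 0.284).

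Of 16 markers of mitochondrial mass, 4 were called lower and 1 higher, with a median of -0.26 and summed levels of 2388 to 2611 CPM in HFD and 2834 to 3760 CPM in chow. The chaperone genes Hspa9 (-0.58) and Hspd1 (-0.55) and the import gene Timm44 (-0.53) fell, though with adipocyte marker scaling these 3 stood at 0.02, 0.04 and 0.05, and the import receptor gene Tomm20 rose (0.62). Beside these, 5 of 75 cytosolic ribosomal protein genes were called lower and 1 higher (median -0.16), and 15 of 36 tested respiratory complex I genes were called lower and 0 higher (median -0.40). These lists are set side by side with the 66 genes; differences between lists were not tested.

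**Figure D4:**
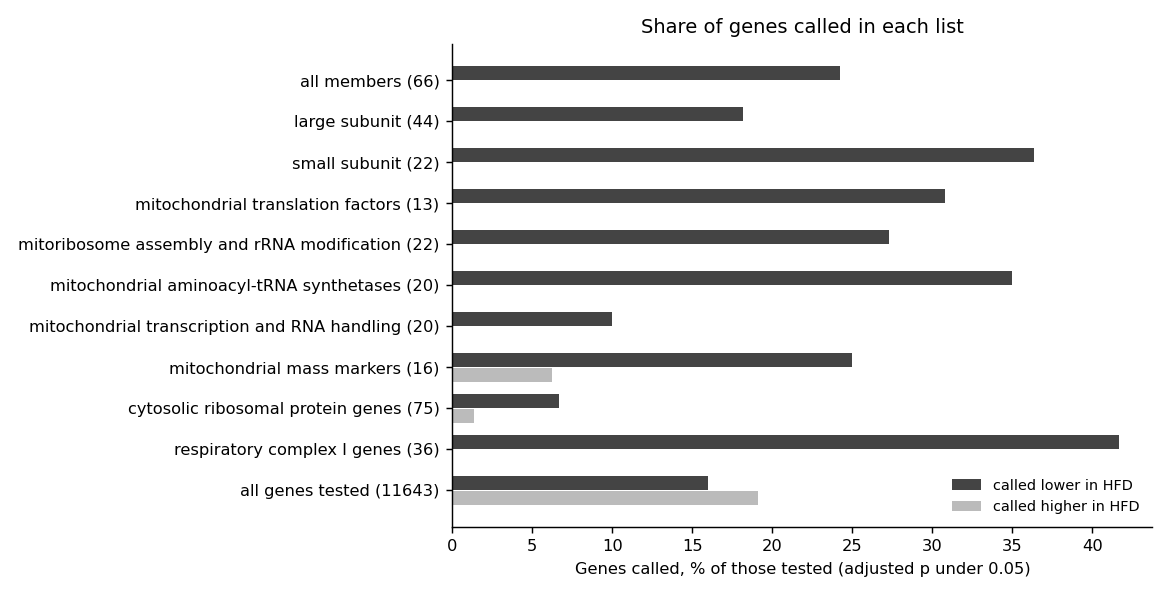
Share of tested genes called lower (dark bars) and higher (light bars) in HFD for the 66 genes, their subunits, related lists and all genes, with the number of genes in brackets. The members stand at 24.2% lower and 0% higher, and all tested genes at 16.0% and 19.1%, with the deposited scaling; with adipocyte marker scaling 0 members were lower and 25.8% higher, against 50.8% of all genes higher.

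The genes lie on 17 chromosomes. Among 59 members with a promoter in the RefSeq table, 22 (37.3%) have the start site of another gene on the opposite strand within 500 bases upstream, as do 15.4% of 8643 tested genes in that table. Mrpl46 and Mrps11 form such a pair of members on chromosome 7, with starts 42 bases apart. Their log2 fold changes were -0.43 and 0.11. Mrps12 and Sars2, the mitochondrial seryl-tRNA synthetase gene, start 147 bases apart and had log2 fold changes of -0.73 and -0.47 (Sars2 limma adjusted p 0.0816). Of the 19 partners tested, 1 was called lower, 2610507I01Rik beside Mrpl55, and 1 higher, Gga3 beside Mrps7 (1.01, limma adjusted p 0.00896), while Mrps7 itself stood at -0.22.

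Promoters of the members were searched on both strands, from 250 bases before to 50 after the start, for short letters known from factors that bind genes of mitochondrial function. The letters of YY1 (AAGATGGC) were in 12 of 59 members (20.3%), against 4.92% of tested genes and 2.88% of all 27025 promoters in the table. The letters of ETS factors such as GABPA (CCGGAAG) were in 21 (35.6%, against 18.4% and 9.12%), and those of NRF1 (GCGCATGC) in 7 (11.9%, against 5.79% and 2.80%). CREB letters (TGACGTCA) were in 2 (3.39%, against 3.41% and 1.88%), SP1 letters (GGGCGG) in 29 (49.2%, against 65.7% and 35.9%) and TATA letters (TATAAA) in 4 (6.78%, against 6.87% and 14.2%). Overlaps between motifs were allowed. Within only the 250 bases before the start, 4 members held YY1 letters, 14 ETS letters and 7 NRF1 letters. The share of all genes was not counted for that shorter stretch. Of the 16 members called lower in HFD, 14 have a promoter in the table. Over the whole stretch searched, 4 of these 14 held YY1 letters, 5 ETS letters and 1 NRF1 letters. Among the other 45 members with a promoter, these numbers were 8, 16 and 6. Median log2 fold changes were -0.29 with and -0.21 without YY1 letters, -0.22 with and -0.21 without ETS letters, and -0.21 with and -0.22 without NRF1 letters. A match is a description of letters and not a site.

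Promoters of 6 members are shown, credited to RefSeq on GRCm38.p6 and limited to the 250 bases before the start. Mrpl9 and Mrpl45 are the called members with the largest falls, Mrps23 and Mrpl35 the members with fold changes nearest to 0, and Mrpl17 and Mrpl10 hold such letters where the table's start is that of the gene span and no start on the other strand is near. Capitals mark the letters of NRF1, ETS, YY1 or CREB on either strand. For Mrpl9, Mrpl45 and Mrps23 the annotated gene span begins further upstream than the start used.
Mrpl9, chr3:94443086-94443335, plus strand: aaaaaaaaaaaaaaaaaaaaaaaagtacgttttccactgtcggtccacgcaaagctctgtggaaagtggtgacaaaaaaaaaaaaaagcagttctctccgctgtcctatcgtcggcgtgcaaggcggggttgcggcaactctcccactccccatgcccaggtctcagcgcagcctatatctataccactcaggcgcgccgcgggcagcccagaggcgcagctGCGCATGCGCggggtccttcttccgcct
Mrpl45, chr11:97315466-97315715, plus strand: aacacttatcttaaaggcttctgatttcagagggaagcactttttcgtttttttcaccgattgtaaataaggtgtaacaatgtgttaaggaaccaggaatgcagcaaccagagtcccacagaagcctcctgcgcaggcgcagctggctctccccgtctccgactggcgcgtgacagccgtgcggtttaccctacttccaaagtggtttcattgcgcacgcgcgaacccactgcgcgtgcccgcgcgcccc
Mrps23, chr11:88204138-88204387, plus strand: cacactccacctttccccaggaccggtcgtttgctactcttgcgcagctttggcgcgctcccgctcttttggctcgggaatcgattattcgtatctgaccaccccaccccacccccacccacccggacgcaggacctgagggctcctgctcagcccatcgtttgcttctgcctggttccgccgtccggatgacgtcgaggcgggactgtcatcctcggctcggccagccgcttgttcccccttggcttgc
Mrpl35, chr6:71823785-71824034, minus strand: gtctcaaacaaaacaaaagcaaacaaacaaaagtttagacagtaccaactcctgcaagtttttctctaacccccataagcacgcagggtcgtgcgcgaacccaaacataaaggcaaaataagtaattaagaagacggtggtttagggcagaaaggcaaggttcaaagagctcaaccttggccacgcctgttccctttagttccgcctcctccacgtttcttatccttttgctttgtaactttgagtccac
Mrpl17, chr7:105811088-105811337, minus strand: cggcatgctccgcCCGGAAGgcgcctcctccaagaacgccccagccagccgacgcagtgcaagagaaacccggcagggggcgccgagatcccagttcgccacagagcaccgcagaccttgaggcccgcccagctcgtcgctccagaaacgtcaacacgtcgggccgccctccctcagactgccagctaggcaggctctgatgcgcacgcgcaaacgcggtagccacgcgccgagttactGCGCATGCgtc
Mrpl10, chr11:97041332-97041581, plus strand: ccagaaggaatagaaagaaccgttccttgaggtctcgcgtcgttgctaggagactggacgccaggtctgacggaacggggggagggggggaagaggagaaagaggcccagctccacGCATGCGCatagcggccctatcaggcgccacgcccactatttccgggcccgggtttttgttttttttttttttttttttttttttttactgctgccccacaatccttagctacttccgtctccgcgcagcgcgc
In Mrpl9 the NRF1 letters stand on both strands in overlap, beginning 28 and 26 bases before the start. Mrpl17 holds them 11 bases before the start and ETS letters at 237, and Mrpl10 holds NRF1 letters at 134. The windows of Mrpl45, Mrps23 and Mrpl35 hold none of the marked letters, which says only that these letters are not in this stretch.

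**Figure D5:**
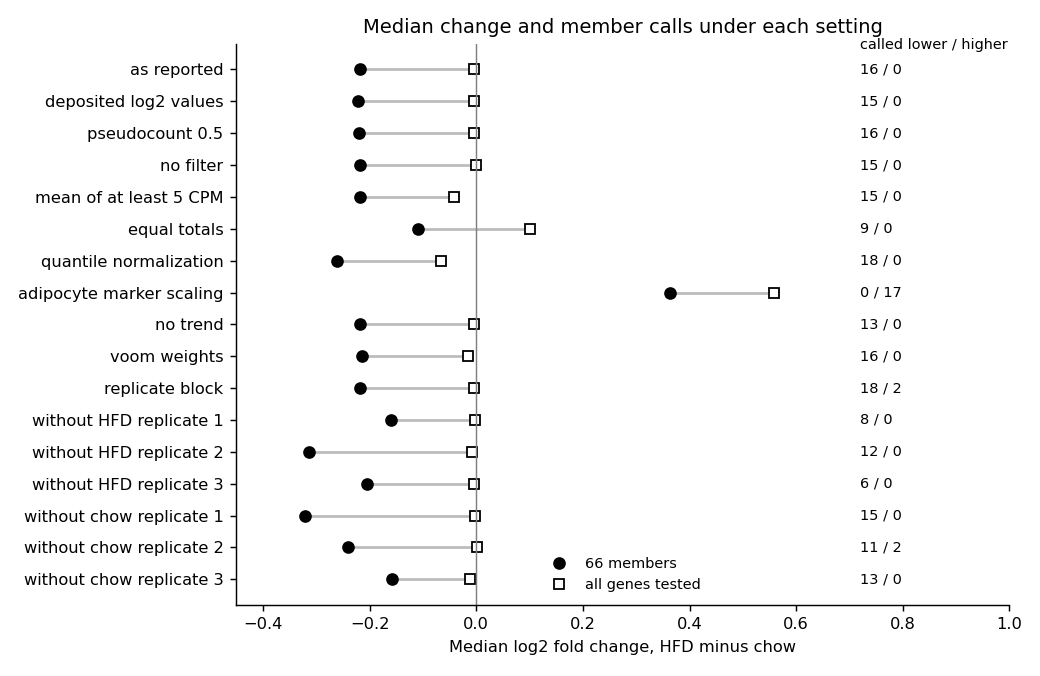
Median log2 fold change (HFD minus chow) of the 66 genes (filled circles) and of all genes tested (open squares) under each setting, with the numbers of members called lower and higher at the right. The members' median lies below that of all genes in each setting shown, and above 0 only with adipocyte marker scaling (0.36).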

How the data were processed

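Translating RNA from 3 HFD and 3 chow libraries was measured. The authors deposited log2 CPM per gene, rounded; mm10, featureCounts, HISAT2, edgeR and Picard appear in the submitters' processing notes without roles or versions, and no source used here gives the prior count. The library kit does not mark strand, so overlapping genes cannot be told apart. Effective library sizes of 7430000 to 39400000 reads were chosen so that low values of the deposited log2 CPM step in whole reads. At these sizes 100% lay within 0.1 read, which is thus no separate check. Of values of 1 to 10 reads, 53.8% (HFD replicate 1) to 75.9% (chow replicate 2) were even. Whether each read is a separate fragment was not tested. Values were converted to CPM, and the 11643 of 11761 genes whose mean reached 1 CPM entered a limma fit (version 3.58.1, R 4.3.3, two-sided, trended variance) on log2(CPM + 1), with Benjamini-Hochberg adjustment over all of them and a threshold of 0.05. For a symbol with several rows the row with the higher mean was used. All 66 members matched RefSeq (GRCm38.p6).

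The members and all lists were chosen with earlier results of these data known. Named were every called member, the 6 highest and 6 lowest fold changes, members with special roles, the 2 most and 2 least correlated with the others, and from each related list up to 3 called genes per direction plus 9 fixed genes; further names are marked as picked after their values were seen. The promoters shown were picked by fold change and by motif matches. Mitochondrially encoded genes were not analysed here. The reported fit was also run on simulated data, with noise drawn independently for each gene and library. Those data lack library differences shared by genes, so the run cannot check calls that rest on particular libraries. Its outcome is not given here. Alternatives changed the pseudocount, filter, scaling, variance model, replicate block and the libraries included.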

Additional observations from a re-analysis of the deposited data

How the results depend on the processing

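The count of members lower in HFD was 13 to 18 with the deposited log2 values, a pseudocount of 0.5, no filter, a mean of at least 5 CPM, quantile normalization, no variance trend and voom weights on the recovered reads (2105 genes higher and 1887 lower in all), and the median was negative in each; Mrps12 was lost in 5 of these 7. The count of 18 came with quantile normalization, where 27.3% of the members and 19.7% of all tested genes (2295) were lower. The count of 13 came without a variance trend, where the shares were 19.7% and 14.6%. With a mean of at least 5 CPM they were 22.7% and 17.2%. With equal totals 9 members (13.6%) were lower (5 large, 4 small), where 11.5% of all tested genes were. With adipocyte marker scaling, added after seeing the data, 5916 genes were higher and 331 lower; 17 members were higher (11 large, 6 small) and 0 lower, and the medians were 0.36 over all members, 0.37 for the large and 0.23 for the small subunit. The planned scaling to an earlier list of adipocyte identity genes was not run. The causes were not tested.

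Leaving out each library gave 6 to 15 members lower (4 to 8 large, 2 to 7 small) and 0 to 2 higher (0 to 1 in each subunit), medians of -0.32 to -0.16, and 1162 to 1740 genes lower over the whole table; the lowest of these counts came without HFD replicate 3. The labels do not say that replicate numbers pair libraries, so the reported fit had no block. Same-numbered libraries correlated with r of 0.43, 0.23 and 0.086 once diet means were removed, which does not decide whether they are pairs. With the replicate number as a block 18 members (27.3%) were lower, where 19.3% of all tested genes were. In that fit 2 members (3.03%) were higher, Mrpl42 and Mrps22 (1 large, 1 small), where 22.3% of all tested genes were.

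Single genes changed sign as follows. With adipocyte marker scaling the log2 fold changes were 0.54 for Mrpl10, 0.24 for Mrpl12, 0.094 for Mrpl2, 0.068 for Mrpl37, 0.041 for Mrpl38, 0.43 for Mrpl44, 0.56 for Mrpl50, 0.21 for Mrps18a, 0.22 for Mrps18c, 0.084 for Mrps24, 0.00603 for Mrps26, 0.071 for Mrps27, 0.21 for Mrps28, 0.019 for Mrps5, 0.25 for Dap3, 0.34 for Esrra, 0.072 for Gabpa, 0.019 for Hspa9, 0.043 for Hspd1, 0.024 for Mtfmt, 0.19 for Nrf1, 0.56 for Polrmt and 0.055 for Timm44. With equal totals they were 0.067 for Mrpl10, 0.084 for Mrpl50 and 0.088 for Polrmt, and with quantile normalization 0.036 for Mrpl50 and -0.044 for Mrps11. Over the fits that left out a library they ran from -0.15 to 0.044 for Mrpl10, -0.013 to 0.28 for Mrpl30, -0.15 to 0.091 for Mrpl50, -0.073 to 0.21 for Mrps11 and -0.11 to 0.055 for Polrmt. Depth limits chow replicate 3 most.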
